A study of Mus musculus with 4 samples.

Results

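The anoctamins are a family of membrane proteins encoded in mouse by the genes Ano1 to Ano10, and their transcripts were measured in mouse embryonic fibroblasts (MEFs) with and without the DNA glycosylase gene Mbd4. The members were taken by gene name, and 9 of the 10 names had a row among the 23537 listed genes, the exception being Ano4, whose transcript level is not analysed here and which enters only through its annotated position and sequence. The family was chosen by the KO over WT difference of Ano5, which was among the largest in these same libraries. The KO and WT values of the members below therefore describe that choice and do not test it. Total RNA came from subconfluent primary MEF cultures of Mbd4-/- mice (KO, 2 libraries) and of Mbd4+/+ mice (WT, 2 libraries). All 4 libraries carry the strain label C57BL/6, come from embryos taken at day 12.5 after mating, and had no further treatment. No source used here says whether the 2 RNA samples of a genotype came from separate embryos or cultures. Each p-value is thus set against the scatter of these samples alone, and that scatter may be technical.

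Anoctamins share a core of membrane-spanning helices that forms either an ion pathway or a groove along which lipids cross the bilayer, and calcium bound within the membrane opens it. Some members are calcium-activated chloride channels, best known from secretory epithelium, smooth muscle and the pacemaker cells of the gut. Others are scramblases, which let phosphatidylserine reach the outer leaflet of the plasma membrane, and a few act on internal membranes or have no settled activity.

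Each library held between 39108275 and 47567835 counted reads. Levels are given as CPM, the usual count scaled to library size, with library sizes adjusted by the trimmed mean of M-values (TMM), and comparisons between genes use CPM per kb of transcript. Mbd4 itself had 373 and 302 counts in KO, against 663 and 630 counts in WT, a log2 fold change of -0.99 (SE 0.109), so its reads were lower in KO without being absent. The sources used here do not state which part of the gene the allele removes, and counts over the whole gene check the labels only to that extent. Of 15538 genes tested by edgeR's quasi-likelihood test, 34.3% were higher and 32.5% were lower in KO at a Benjamini-Hochberg adjusted p under 0.05. With plain library totals in place of TMM the share of calls that were higher in KO was 62.6%, against 51.4% with TMM, and the middle gene of those tested stood at a log2 fold change of 0.17 in place of 0.02.

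The DNA just before the start differs among the expressed anoctamins in the number of CpGs it holds. The 250 bases upstream of the start are shown for Ano5 and Ano1, the members that differed most between the genotypes, and for Ano6 and Ano10, the 2 most abundant members in both. Capitals mark every CpG, the dinucleotide that is methylated in mammalian DNA and whose deamination product MBD4 repairs. The sequences are from RefSeq (GRCm38.p6), run 5′ to 3′ on the strand of the gene, and each matched its chromosome of the mm9 assembly exactly and at 1 place. In mm9 these are chr7:58766149-58766398 on the plus strand for Ano5, chr7:151924479-151924728 on the minus strand for Ano1, chr15:95621024-95621273 on the plus strand for Ano6 and chr9:122203542-122203791 on the minus strand for Ano10.
Ano5: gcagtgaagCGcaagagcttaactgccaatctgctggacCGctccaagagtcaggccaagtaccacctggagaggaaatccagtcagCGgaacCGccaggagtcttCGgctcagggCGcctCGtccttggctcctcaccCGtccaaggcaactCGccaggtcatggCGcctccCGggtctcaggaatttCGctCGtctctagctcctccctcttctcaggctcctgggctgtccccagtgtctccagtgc
Ano1: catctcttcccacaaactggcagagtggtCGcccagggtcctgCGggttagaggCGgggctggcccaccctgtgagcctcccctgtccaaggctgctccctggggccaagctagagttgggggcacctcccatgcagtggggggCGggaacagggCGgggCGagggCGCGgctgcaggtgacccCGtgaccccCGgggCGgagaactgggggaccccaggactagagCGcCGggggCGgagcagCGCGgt
Ano6: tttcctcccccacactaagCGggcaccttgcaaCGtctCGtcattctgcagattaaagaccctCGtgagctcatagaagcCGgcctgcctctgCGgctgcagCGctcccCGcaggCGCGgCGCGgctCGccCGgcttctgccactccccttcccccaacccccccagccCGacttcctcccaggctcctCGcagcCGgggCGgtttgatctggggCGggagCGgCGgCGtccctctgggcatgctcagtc
Ano10: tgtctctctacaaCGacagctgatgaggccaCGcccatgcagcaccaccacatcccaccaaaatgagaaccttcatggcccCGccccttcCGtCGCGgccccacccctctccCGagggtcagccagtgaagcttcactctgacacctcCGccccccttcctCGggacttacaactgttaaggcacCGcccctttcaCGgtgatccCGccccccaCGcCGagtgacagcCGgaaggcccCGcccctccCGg

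In these stretches Ano5 had 13 CpGs, Ano1 had 16, Ano6 had 22 and Ano10 had 17. In the full RefSeq window, which adds the first 50 transcribed bases, the counts were 15 for Ano5, 18 for Ano1, 29 for Ano6 and 24 for Ano10. Across all 32851 RefSeq windows of that length the median was 7 CpGs, and 94.6% held at least 1. At least as many as in Ano5 were found in 34.6% of windows, as many as in Ano1 in 29.7%, as many as in Ano10 in 20% and as many as in Ano6 in 12.9%. The members with almost no reads had fewer CpGs, with 4 in the Ano7 window, 4 and 8 in the 2 windows of Ano3, and 10, 14 and 5 in the 3 windows of Ano2. Ano4 had 3. Ano8 and Ano9 were not included in this count. The RefSeq start of Ano5 falls on the first base of its mm9 gene model, whereas that of Ano1 lies 13401 bases inside the gene model, within the span of a longer transcript. No methylation was measured in these libraries, and these letter counts say nothing of whether any CpG is methylated.

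Across the proteins, the family is diverse. In 45 pairwise comparisons of the longest annotated coding sequences, identity ranged between 22.3% and 65.8%, with a median of 36.4%. The closest relative of Ano5 (904 residues) was Ano6 (911 residues), with 50.4% of aligned residues identical. Ano1 (1014 residues) was closest to Ano2 (1004 residues) at 58.8%, and Ano3 (981 residues) was closest to Ano4 (937 residues) at 65.8%. Ano8 (1060 residues) and Ano10 (659 residues) stood apart from the others and were closest to each other, at 34.9%.

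Among the calcium-activated chloride channels, Ano1 was lower in KO and Ano2 was almost unread in both genotypes. Ano1 lies at chr7:151774454-151937879 on the minus strand and encodes the channel that carries calcium-activated chloride current in secretory epithelium and in the interstitial cells of Cajal. It had 90 and 77 counts in KO, against 848 and 661 counts in WT. In CPM these are 1.89 and 1.87 in KO, against 18.9 and 16.1 in WT, so both KO libraries lay far below both WT libraries and the KO pair was the tighter one. The mean was 1.88 ± 0.018 CPM in KO and 17.5 ± 1.98 CPM in WT (SD, n = 2 each). The log2 fold change was -3.22 (SE 0.142), a 9.31-fold lower level in KO. By fold change it stood 239th among all falls. Ano2, at chr6:125640437-125990144 on the plus strand, encodes the channel of olfactory and photoreceptor cells. It had 3 and 0 counts in KO, against 0 and 1 in WT, too few to compare. A count of 0 allows up to 3 counts, which is 0.0631 to 0.0732 CPM in these libraries. Such limits cover counting error only.

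Of the members grouped here as scramblases (Ano6, Ano3, Ano7 and Ano9), Ano6 had the highest level of the family and the others were close to unread. The grouping only orders the description, and scrambling was not measured here for Ano5 or any other member. Ano6 lies at chr15:95621274-95805180 on the plus strand and encodes the scramblase whose loss in humans causes Scott syndrome, a bleeding disorder in which activated platelets fail to expose phosphatidylserine. It had 7629 and 6501 counts in KO, against 7731 and 7244 counts in WT. The means were 159 ± 1.97 CPM in KO and 175 ± 2.98 CPM in WT (SD, n = 2 each), and the libraries of the 2 genotypes did not overlap. The log2 fold change of Ano6 was -0.13 (SE 0.057), which did not pass the threshold (edgeR quasi-likelihood test, adjusted p = 0.051), and with plain library totals its sign turned, to 0.01.

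Ano3, Ano7 and Ano9 also scramble lipids when mouse proteins are expressed in cultured cells. Ano3, at chr2:110495358-110791080 on the minus strand, had 4 counts in each KO library and 0 counts in each WT library. Set against the floor of 3 counts in each WT library, the KO mean of Ano3 was 1.29 times the mean floor, on 8 reads in all. That ratio leaves out the counting error of the KO counts. It is thus no lower limit, and Ano3 cannot be called higher in KO. Ano7, at chr1:95270473-95300079 on the plus strand, is known for its expression in human prostate. It had 1 count in each KO library, against 3 and 0 counts in WT. Ano9, at chr7:148287118-148303705 on the minus strand, had 0 counts in both KO libraries, against 0 and 1 in WT. No fold is given for Ano2, Ano7 or Ano9, since both genotypes were at or under the floor. None of these 4 genes was tested. Muc15 overlaps Ano3 on the other strand, and a small nuclear RNA gene lies within Ano9. The library kit keeps the strand, but no source used here states whether counting took account of it, so reads of antisense pairs may not have been told apart.

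**Figure D1:**
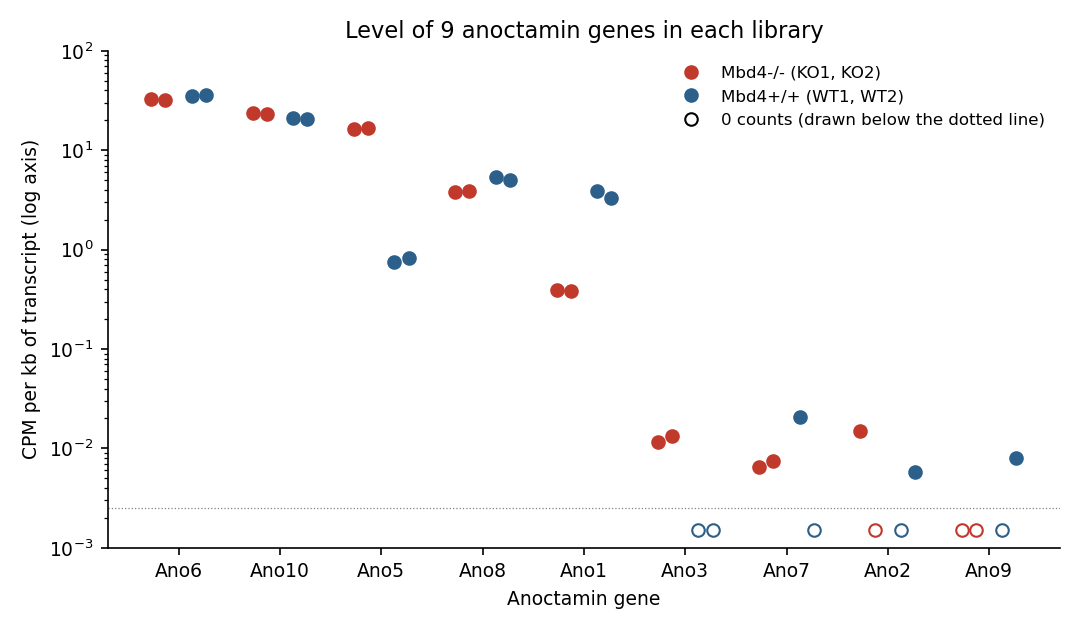
Level of the 9 anoctamin genes in each library, in CPM per kb of transcript on a log axis, with the Mbd4-/- libraries left of the Mbd4+/+ libraries for each gene. Open circles are libraries with 0 counts. Ano5 sits at 16.3 and 16.6 in KO against 0.753 and 0.814 in WT, Ano1 at 0.391 and 0.386 in KO against 3.91 and 3.33 in WT, and the 4 genes at the right hold at most 4 counts in any library.

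The remaining expressed members are known mainly from internal membranes. Ano5 is associated in humans with limb-girdle muscular dystrophy when lost, and with a skeletal disorder, gnathodiaphyseal dysplasia, when altered by dominant mutations. It lies at chr7:58766399-58854079 on the plus strand, with no other annotated gene in its span. Ano5 had 6060 and 5330 counts in KO, against 263 and 260 counts in WT. In CPM these are 127.5 and 129.3 in KO, against 5.87 and 6.35 in WT, so the pairs were close within each genotype and far apart between them. The mean was 128 ± 1.28 CPM in KO and 6.11 ± 0.336 CPM in WT (SD, n = 2 each). The log2 fold change was 4.39 (SE 0.080), a 21.0-fold higher level in KO. By fold change Ano5 stood 235th among all rises, and by the size of the test statistic it stood 13th of all genes. These are values that chose the family.

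Ano10 and Ano8 differed by much less. Ano10, at chr9:122084997-122203492 on the minus strand, is a gene whose loss in humans causes a recessive cerebellar ataxia. It had 2943 and 2510 counts in KO, against 2511 and 2236 counts in WT. The means were 61.4 ± 0.725 CPM in KO and 55.3 ± 1.05 CPM in WT (SD, n = 2 each), without overlap between the genotypes. Its log2 fold change of 0.15 (SE 0.066) did not pass the threshold (edgeR quasi-likelihood test, adjusted p = 0.058). With plain library totals the log2 fold change of Ano10 was 0.30, which is 0.13 above the median of all genes under that scaling. Ano8, at chr8:73999922-74009966 on the minus strand, encodes a protein that tethers the endoplasmic reticulum to the plasma membrane in human cells. It had 675 and 600 counts in KO, against 904 and 763 counts in WT. The means were 14.4 ± 0.251 CPM in KO and 19.4 ± 1.10 CPM in WT (SD, n = 2 each), with both KO libraries below both WT libraries. The log2 fold change of Ano8 was -0.43 (SE 0.092). Dda1, which lies on the other strand and shares 76 exon bases with Ano8, had 1143 and 1012 counts in KO, against 2107 and 1904 counts in WT. Its log2 fold change was -0.94 (SE 0.073), and the part of its reads in the Ano8 counts was not tested.

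Of the 9 listed anoctamins, 5 passed the filter on low counts, and at an adjusted p under 0.05 by edgeR's quasi-likelihood test 1 was higher in KO (Ano5) and 2 were lower (Ano1 and Ano8). Among all genes tested 34.3% were higher and 32.5% were lower. At the stricter limits of an adjusted p under 0.01 and an absolute log2 fold change over 2, Ano5 was the 1 member higher and Ano1 the 1 member lower, where 5.79% and 3.15% of all genes were past these limits in each direction. In all 5 tested members both KO libraries lay on 1 side of both WT libraries, as they did for 82.8% of all genes tested. With 2 libraries on each side, the smallest two-sided p of an exact permutation test is 0.333, so no single gene can be tested that way. In RNA from whole cultures, fewer cells of a kind and less RNA per cell cannot be told apart.

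**Figure D2:**
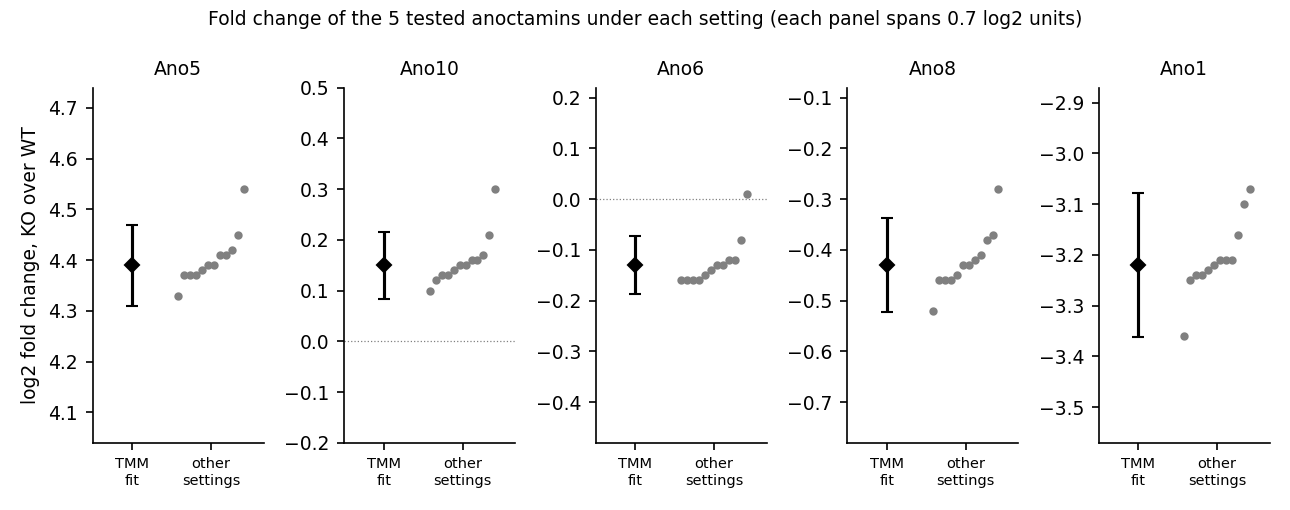
Log2 fold change of KO over WT for the 5 tested anoctamins, 1 panel a gene, with the TMM fit as a diamond (bar, ± 1 SE) and 12 other settings as grey points in order of size. Ano5 stays between 4.33 and 4.54 and Ano1 between -3.36 and -3.07, Ano8 stays below 0, and Ano6 reaches 0.01 with plain library totals.

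Per kb of transcript, the order of the expressed members differed between the genotypes only in Ano5, which lay above Ano8 and Ano1 in KO and below both in WT. In KO, Ano6 was at 32.1 ± 0.398 CPM per kb, followed by Ano10 at 23.25 ± 0.274, Ano5 at 16.5 ± 0.164, Ano8 at 3.83 ± 0.067 and Ano1 at 0.389 ± 0.0037 (SD, n = 2). In WT, Ano6 was at 35.3 ± 0.602 CPM per kb, followed by Ano10 at 20.95 ± 0.397, Ano8 at 5.17 ± 0.294, Ano1 at 3.62 ± 0.409 and Ano5 at 0.783 ± 0.043 (SD, n = 2). Neighbours among these 5 did not overlap in either genotype, whereas Ano2, Ano3, Ano7 and Ano9 could not be ordered on the reads they had. Ano5 lay above 82.5% of listed genes by level per kb in KO and above 47.7% in WT. For Ano1 these shares were 40.6% in KO and 60.7% in WT, and for Ano6 91.3% in both.

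As a share of all anoctamin transcripts per kb, Ano5 made up 21.4% and 21.9% in KO, against 1.14% and 1.24% in WT. Ano1 made up 0.512% and 0.51% in KO, against 5.92% and 5.09% in WT. Ano6 was the main member in every library, with 42.4% and 42.0% in KO and 52.7% and 54.5% in WT. Ano10 held 30.7% and 30.4% in KO and 32.1% and 31.6% in WT. The summed level of the 9 genes was 76.4 and 75.8 CPM per kb in KO, against 66.1 and 65.5 in WT. Without Ano5 it was 60.0 and 59.2 CPM per kb in KO, against 65.4 and 64.7 in WT. On the TMM scale the sum was thus higher in KO with Ano5 and lower in KO without it. Whether the direction without Ano5 holds under another scaling was not tested. With plain library totals the log2 fold change of Ano6, the main member, was 0.01, and the sum was not computed that way. Ano5 stood at 41.8 and 42.9 times the level of Ano1 in KO, against 0.192 and 0.244 times in WT.

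**Figure D3:**
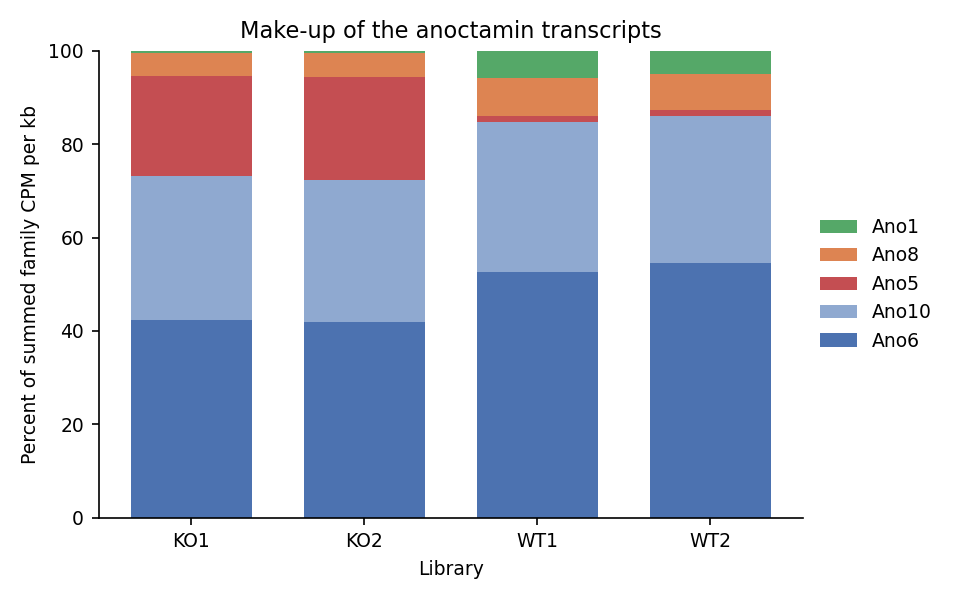
Share of the summed anoctamin level (CPM per kb) held by each expressed member in the 2 KO libraries and the 2 WT libraries. The Ano5 band fills 21.4% and 21.9% of the KO bars and 1.14% and 1.24% of the WT bars, and the Ano1 band at the top is thin in KO (0.512% and 0.51%) and wider in WT (5.92% and 5.09%).

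The genes that lie beside the members were examined to see how far a difference was shared along the chromosome. Each member has the 3 nearest listed genes on each side, and of these 60 genes 36 were tested, 15 of them higher and 14 lower in KO (edgeR quasi-likelihood test, adjusted p under 0.05), where 34.3% and 32.5% of all genes tested were called. With so many genes called, neighbours that share a direction are no finding about a member. Around Ano5 only Fancf and Gas2 had enough reads. Fancf, a Fanconi anaemia core complex gene 261.9 kb away, had 669 and 500 counts in KO, against 410 and 416 in WT, a log2 fold change of 0.44 (SE 0.118). Gas2, a cytoskeletal gene first found in growth-arrested fibroblasts, lies 263.3 kb away. It had 5821 and 4936 counts in KO, against 747 and 638 in WT, a log2 fold change of 2.91 (SE 0.072). Both were higher in KO. The nearest gene on that side, Slc17a6, which encodes a vesicular glutamate transporter, had 6 and 6 counts in KO, against 4 and 2 in WT. On the other side Gm9354, Nell1 and Slc6a5 held at most 11 counts in any library.

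Beside Ano1, the difference of the adjoining genes was far smaller than its own. Fadd, the adaptor of death receptors, lies 6.1 kb away and had 273 and 281 counts in KO, against 385 and 346 in WT, a log2 fold change of -0.44 (SE 0.133). Ppfia1, a liprin of focal adhesions, followed at 34.8 kb with -0.37 (SE 0.064). Cttn, which encodes the actin-binding protein cortactin, is 117.5 kb away and did not pass the threshold at -0.02 (SE 0.059). The 3 genes on the other side, Fgf4 among them, were not tested. Around Ano8 all 5 tested neighbours were lower in KO, with log2 fold changes between -0.99 for Bst2 and -0.22 for Abhd8. Around Ano10, 5 of 6 were higher, including the noncoding gene 9530059O14Rik, with 1146 and 873 counts in KO against 2 and 0 in WT. Around Ano6, the neurally expressed Nell2 had a log2 fold change of 4.76 (SE 0.188) and Tmem117 of 2.37 (SE 0.100), both on the lower-coordinate side, while the 2 tested genes on the other side did not pass the threshold.

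**Figure D4:**
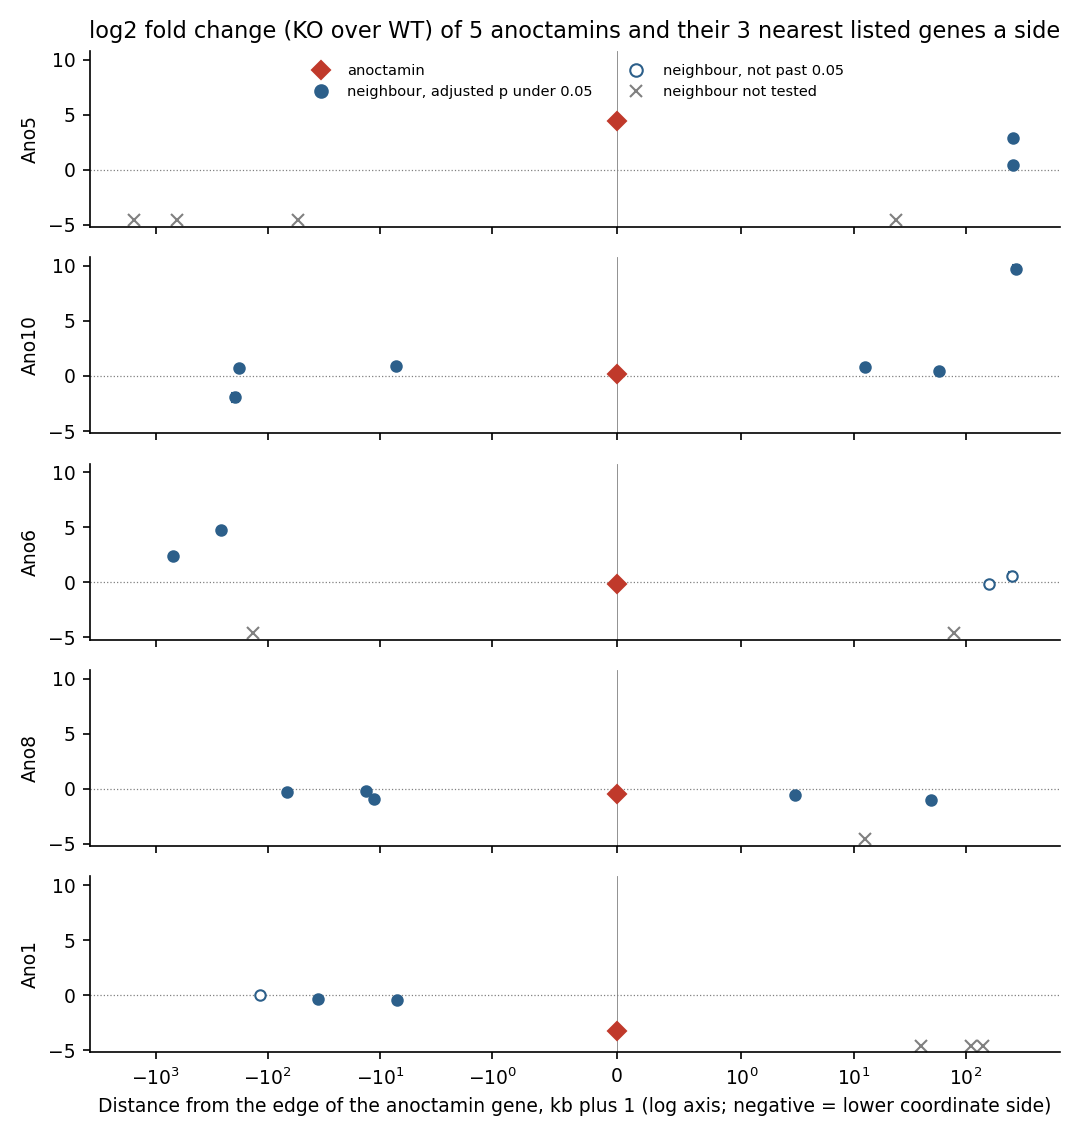
Log2 fold change of KO over WT (± 1 SE) for the 5 tested anoctamins (diamonds) and the 3 nearest listed genes on each side (circles), by distance from the edge of the anoctamin gene in kb. Crosses at the bottom mark genes with too few reads to test. Gas2 at 2.91 and Fancf at 0.44 are the tested genes near Ano5, and those near Ano1 lie between -0.44 and -0.02.

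The genes nearest to Ano5 and Ano1 in pattern over the 4 libraries were found by the Euclidean distance of centred log2 CPM. A prior count of 2 draws in the differences of genes with few reads, and only tested genes with a mean of at least 1 CPM were searched. As the libraries of a genotype lay close together, this distance mostly matches genes on the KO over WT fold change. For Ano5 that is the value that chose the family. Nearest to Ano5 were Bcl11b, a zinc finger transcription factor of T cells and neurons, at a distance of 0.0464, Nav3, a neuron navigator gene, at 0.0536, and Igf1, the growth factor gene, at 0.0825. The first place of Bcl11b rests on the prior count, since it had 232 and 195 counts in KO, against 8 and 8 in WT, and lay at 0.295 without a prior, where Nav3 lay at 0.0548 and Igf1 at 0.0834. Igf1 had 6208 and 5489 counts in KO, against 287 and 282 counts in WT. Nav3 had 6682 and 5895 counts in KO, against 299 and 300 in WT. Nearest to Ano1 were Fbln2, encoding the matrix protein fibulin-2, at 0.0865, ORF63 at 0.103, and Fam198b at 0.111. Without a prior Fbln2 lay at 0.0626, Fam198b at 0.0825 and ORF63 at 0.11. The place of ORF63 before Fam198b thus rests on the prior count too. Fbln2 had 5082 and 4204 counts in KO, against 49224 and 37246 counts in WT. The log2 fold changes of these genes lie near those of Ano5 and Ano1 by the way they were picked. They were 4.67 for Bcl11b, 4.34 for Nav3 and 4.31 for Igf1, and -3.26 for Fbln2, -3.27 for ORF63 and -3.30 for Fam198b.

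The other genes of the pathways in which anoctamins act were taken as 5 lists, chosen with earlier results of these data known. The closest relatives, the TMC and TMEM63 families, known for mechanically gated channels, had 8 of 11 genes tested, 4 higher and 1 lower in KO, or 50% and 12.5% against 34.3% and 32.5% of all genes tested. Their median log2 fold change was 0.51 against 0.02 for all genes, and with DESeq2 the higher genes numbered 2. Tmc4 had 236 and 200 counts in KO, against 72 and 65 in WT, a log2 fold change of 1.62 (SE 0.176). Tmem63a, the most abundant of the list per kb, was 0.69 (SE 0.064) higher on the log2 scale. Tmc6, known for its part in zinc handling and in resistance to skin papillomaviruses in humans, went the other way, with 72 and 96 counts in KO against 1197 and 946 in WT, a log2 fold change of -3.71 (SE 0.162).

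The other chloride channels had 18 of 27 genes tested, 6 higher and 9 lower in KO, or 33.3% and 50% (34.3% and 32.5% of all genes tested), with a median of -0.61. Cftr, the chloride channel mutated in cystic fibrosis, had 297 and 242 counts in KO, against 1008 and 988 in WT. Its log2 fold change was -1.94 (SE 0.104), so it was lower in KO as Ano1 was. Clcn3, an endosomal chloride-proton exchanger, was also lower, at -1.12 (SE 0.084). Lrrc8d, a subunit of the volume-regulated anion channel, was higher at 0.79 (SE 0.105). So was the most abundant gene of the list per kb, Clcn4-2, at 0.57 (SE 0.061). Without KO replicate 1, without KO replicate 2, and with DESeq2, the genes higher in this list numbered 3 each time.

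Other scramblases and flippases, which move phospholipids as Ano6 does or in the opposite sense, had 24 of 30 genes tested, 6 higher and 12 lower, or 25% and 50% (34.3% and 32.5% of all genes tested), with a median of -0.14. Xk, a partner of the lipid transfer protein VPS13A, had 37 and 30 counts in KO, against 372 and 322 in WT, a log2 fold change of -3.42 (SE 0.184). Atp8b1, a flippase of bile canaliculi, was lower at -1.97 (SE 0.243). Higher in KO were Plscr4 at 2.97 (SE 0.236) and Plscr2 at 1.60 (SE 0.078), both of the phospholipid scramblase family. Tmem30a, the subunit that most flippases need, was the most abundant per kb and did not pass the threshold at -0.10 (SE 0.058).

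Genes of calcium release and store-operated entry, which supply the calcium that opens anoctamins, were listed together with the calcium pumps that refill the store. This list had 13 of 18 tested, 4 higher and 5 lower, or 30.8% and 38.5% (34.3% and 32.5% of all genes tested), with a median of -0.05. With at least 10 counts in every library the higher genes numbered 2. All 3 inositol trisphosphate receptor genes were called, Itpr2 higher at 0.73 (SE 0.069), and Itpr3 and Itpr1 lower at -0.80 (SE 0.068) and -0.76 (SE 0.060). Ryr3, a ryanodine receptor gene, had 279 and 244 counts in KO, against 7 and 3 counts in WT, a log2 fold change of 5.63 (SE 0.291). Atp2a2, the calcium pump of the endoplasmic reticulum, was the most abundant per kb and was lower at -0.62 (SE 0.059). Membrane repair and dystroglycan complex genes, which like Ano5 are tied to muscular dystrophy in humans, had 21 of 29 tested, 7 higher and 6 lower, or 33.3% and 28.6% (34.3% and 32.5% of all genes tested), with a median of 0.06. Dag1, which encodes dystroglycan, had 15781 and 14986 counts in KO, against 6402 and 6099 in WT, a log2 fold change of 1.25 (SE 0.064). Utrn, encoding utrophin, was higher at 0.51 (SE 0.062). Lower were Large, the glycosyltransferase that extends the sugars of dystroglycan, at -0.85 (SE 0.068), Sgcd, a sarcoglycan, at -0.77 (SE 0.085), and Anxa2, the most abundant of the list per kb, at -0.50 (SE 0.061). With plain library totals 12 genes of this list were higher.

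**Figure D5:**
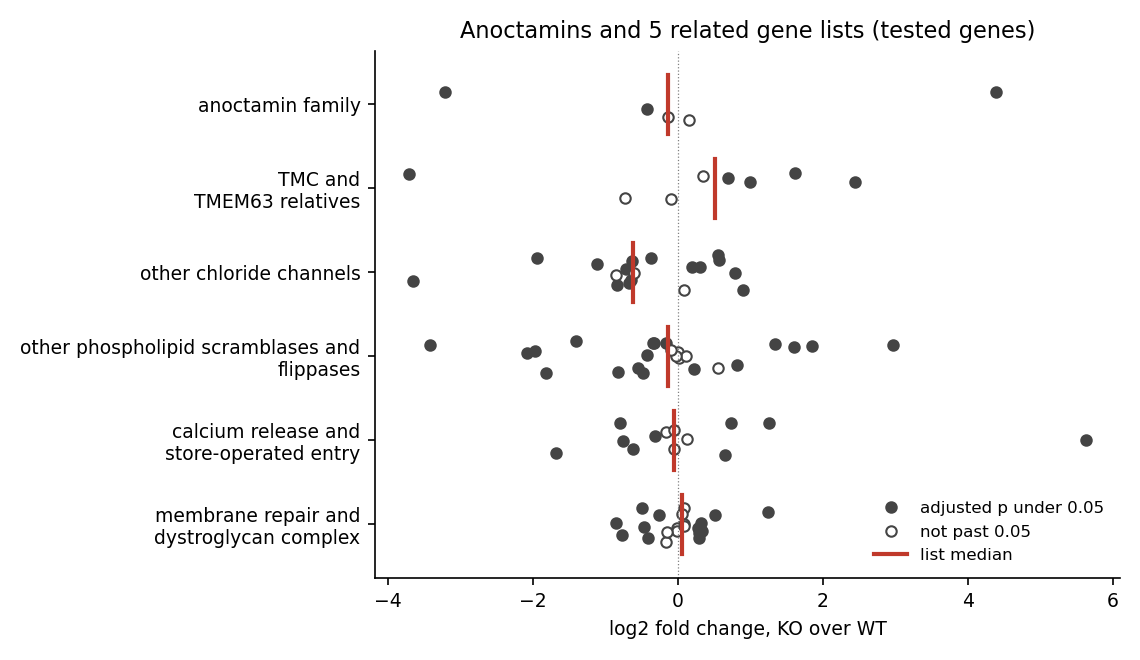
Log2 fold change of KO over WT for the tested genes of the anoctamin family and 5 related lists, filled where the adjusted p was under 0.05, with the list median as a bar. The medians lie between -0.61 for other chloride channels and 0.51 for TMC and TMEM63 relatives, and the points of Ano5 (4.39) and Ano1 (-3.22) lie far to either side of their list's median of -0.13.

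Markers of cell types were read beside these results, and their counts stand against the 34.3% higher and 32.5% lower of all genes tested. Fibroblast and mesenchyme markers were all tested (12 of 12), 1 higher and 7 lower in KO, with a summed level of 13280 to 14390 CPM in KO and 21150 to 23480 CPM in WT. Vim, Fn1 and Col1a2 were abundant in every library but lower in KO, with log2 fold changes of -0.59, -0.89 and -0.36. Col1a1 and Col3a1 were lower too, at -1.32 and -1.31. Dcn had 5 and 7 counts in KO, against 1349 and 1123 in WT. Lum had 0 and 1 counts in KO, against 142 and 131 in WT. The 1 higher marker was Prrx1, with a log2 fold change of 1.92 (SE 0.084). Twist1, Pdgfra, Pdgfrb and Thy1 did not pass the threshold. Skeletal muscle, the tissue of the human Ano5 disease, was at most faintly represented. Of its 12 markers 4 were tested, 1 higher and 1 lower, with a summed level of 4.92 to 6.09 CPM in KO and 8.10 to 10.45 CPM in WT. No row was found under the symbols Myod1, Myog, Myf5, Myf6, Ckm, Mymk or Cdh15. Markers were matched by symbol, so a gene listed under an older name would be missed. Smooth muscle markers, of which 10 of 10 were tested with 3 higher and 4 lower, summed to 4370 to 4393 CPM in KO and 5930 to 6765 CPM in WT. Among them Myocd had 561 and 567 counts in KO, against 4 and 0 in WT. Myh11 and Lmod1 were also higher, with log2 fold changes of 2.08 and 0.53. The lower markers were the abundant Actg2, Cnn1, Acta2 and Tagln, with log2 fold changes of -1.81, -0.67, -0.52 and -0.48. Of 5 markers of interstitial cells of Cajal, 1 was tested, Gja1, which was lower at -2.17 (SE 0.068), and no row was found for Kit, Thbs4 or Hcn4. The summed level of that list was 63.4 to 64.4 CPM in KO and 270.7 to 302 CPM in WT, nearly all of it Gja1. Cartilage markers (6 of 8 tested, 1 higher and 4 lower) summed to 138 to 157 CPM in KO and 426 to 466 CPM in WT, and osteoblast markers (5 of 9 tested, 4 higher and 1 lower) to 369.6 to 435 CPM in KO and 616 to 752 CPM in WT. Epithelium, endothelium and macrophage markers summed to at most 6.16 CPM in any library, and neuron markers to between 33.7 and 36.9 CPM. All 3 tested neuron markers of 10 were called, in opposite directions, with log2 fold changes of 5.87 (SE 0.351) for Syt1, 3.38 (SE 0.124) for Stmn2 and -2.82 (SE 0.138) for Tubb3. The part of any of these cell types in the values of Ano5 and Ano1 was not tested.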

How the data were processed

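Strand-specific libraries were made from total RNA depleted of ribosomal RNA, from subconfluent primary MEFs of Mbd4-/- and Mbd4+/+ mice (2 libraries each), and read as single 50-base reads. The authors mapped reads to mm9 with TopHat and Bowtie and used HTSeq 0.5.4p3 with Ensembl annotation for the gene counts (base calling with CASAVA 1.8.2 per the labels). The deposited table holds their raw read counts for each library. It also holds other values, counts scaled by the authors with DESeq and divided by gene length, which served here only to recover each gene's length in the table. The authors' own log2 ratios, p-values and adjusted p-values were not used. Every listed gene had at least 1 read over the 4 libraries.

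Genes were filtered with filterByExpr (15538 kept, 7999 removed), normalised by TMM and compared in edgeR 4.0.16 by its quasi-likelihood test, adjusted by Benjamini-Hochberg over all genes tested, with a threshold of 0.05. Log2 fold changes are KO over WT, and the common biological coefficient of variation was 0.0597. Replicates correlated at 0.996 (KO) and 0.994 (WT) and genotypes at 0.923 to 0.924 (Pearson, log2 CPM). Tested on simulated data of 15188 genes for the KO over WT comparison, the fit called 64 of 67 genes changed by 1 log2 unit, 67 of 67 by 2 and 66 of 66 by 4, with 15 false calls. Only those genes were changed, in random directions and from means over 1 CPM, with dispersions estimated from these same libraries. Far more genes were called in the real data, so these figures check the code and do not give the error rate of the real calls. Alternatives were DESeq2 1.42.0, limma 3.58.1 with voom, other scalings and filters, a replicate block, and leaving out each library. Gene positions and lengths of coding sequences came from an mm9 annotation of an Ensembl release near the authors' own, and proteins were aligned with mafft 7.526. The 9 listed members are described, and for Ano4 only its sequence and neighbours. From each related list the 2 largest rises and 2 largest falls that passed are named where the mean level reached 1 CPM, with the most abundant gene per kb. Neighbours of Ano5 and Ano1 and the 3 genes nearest to each in pattern are named too. Myocd, Dcn, Lum, the other markers given by name, and the neighbours of Ano6, Ano8 and Ano10 were named after their values were seen. The members and lists were chosen with earlier results of these data known.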

Additional observations from a re-analysis of the deposited data

How the results depend on the processing

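Ano5 (4.33 to 4.54 on the log2 scale), Ano1 (-3.36 to -3.07) and Ano8 (-0.52 to -0.28) kept their direction and passed the threshold under each of 12 alternatives. Ano6 passed it under 5 of the 12 and Ano10 under 3, so neither can be called on these libraries. With plain library totals the log2 fold change of Ano6 was 0.01, which is -0.16 relative to the median of all genes under that scaling. The anoctamins higher in KO numbered 2 with library totals, with upper-quartile scaling and with at least 10 counts in every library, Ano10 being the second. The members lower in KO numbered 1 at an adjusted p under 0.01 with a log2 limit of 2. They numbered 3, with Ano6 added, with RLE size factors, DESeq2 and limma-voom. Without WT replicate 1 or 2 the log2 fold change of Ano6 was -0.16 or -0.15. A fit with 1 library in a group takes its scatter from the other genotype alone, so its calls, also those counted above, add no evidence. For Ano1 the adjusted p of edgeR's quasi-likelihood test was 3.1e-10 with TMM and the default filter. It was 7e-107 without a filter and 2.5e-87 with the replicate block, so these p-values are not comparable across settings. With DESeq2, the higher genes numbered 2 among the TMC and TMEM63 relatives and 3 among the other chloride channels, and leaving out 1 library gave 3 to 5 among the other chloride channels. At least 10 counts in every library left 2 calcium release genes higher, and library totals gave 12 membrane repair genes higher. The cause of these moves was not tested. The replicate numbers did not pair the libraries (correlation of the deviations of KO and WT replicate 1, -0.03), and a fit with the replicate block gave 1 anoctamin higher and 2 lower, as without it. With exon lengths from the annotation, 1 pair of members (Ano2 and Ano7 in KO) changed order, on 5 reads in all. With 2 libraries a genotype the depth leaves Ano2, Ano3, Ano7 and Ano9 undecided, and Ano3 rests on 8 reads.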
